A study of Mus musculus with 6 samples.

Results

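The genes described here are 40 genes of the integrated stress response, of amino acid synthesis and transport, and of serine and one-carbon metabolism. They were taken by symbol from a written list, out of 21851 genes with a symbol in the deposited tables, and all 40 were present. RNA-seq had been run on hematopoietic stem cells (HSCs) from the bone marrow of wild-type mice, in 3 libraries from mice given ionizing radiation (IR) and 3 libraries from control mice (Ctrl). HSCs are the rare cells that renew themselves and supply all blood lineages. The sort took Lineage- cells positive for c-Kit, Sca-1 and CD150 and negative for CD48 and Flt3, and all 6 libraries share this gate and the wild-type genotype. The title of the series speaks of premature aging of these cells, and the comparison of IR with Ctrl asks how their RNA differs after irradiation. The labels do not state the radiation dose, the time from exposure to sorting, the age, sex and strain of the mice, or how many mice stand behind a library.

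In the integrated stress response, kinases that sense amino acid shortage, heme shortage or misfolded protein phosphorylate the initiation factor eIF2, which lowers general translation while the RNA of the transcription factor ATF4 is translated more. ATF4 then raises genes that import and make amino acids, charge tRNAs and supply serine and one-carbon units for nucleotides and methylation, together with genes that feed back on the response or promote cell death. The unfolded protein response of the endoplasmic reticulum (ER) shares 1 of these kinases with it, but raises ER chaperones through other factors, ATF6 and XBP1. HSCs are known to keep a low rate of protein synthesis and to be sensitive to disturbed protein folding. Because ATF4 is controlled largely by translation, its RNA level is not a measure of its protein, which was not measured.

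The DNA letters through which both arms are known to act were searched in promoters of the 40 genes and of ER chaperone genes. Only some of the promoters held them. The promoters are given first because the RNA results are set out by arm. The C/EBP-ATF response element (CARE), which ATF4 binds with a C/EBP partner, was searched as TGATGNAA on both strands. The ER stress response element (ERSE), used by ATF6 and XBP1, was searched as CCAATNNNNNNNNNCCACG on both strands. The windows ran from 250 bases before to 50 bases after each annotated start in RefSeq (GRCm38.p6), and no window of the lists used here held both motifs. Of the 40 genes 33 had a window, and 7 of those 33 (21.2%) held the CARE letters, against 4.51% of all 27025 genes in the promoter table. None of the 33 held the ERSE letters, which 0.137% of all genes in the table held. Of 15 ER chaperone genes, 13 had a window, of which 7 (53.8%) held the ERSE letters and 0 held the CARE letters. A match of letters is a description of the sequence and does not show that a factor was bound in these cells.

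The 7 pathway genes with a CARE match were Asns, Trib3, Chac1, Vldlr, Pycr1, Slc1a4 and Slc7a11. Their matches are set side by side below with 10 bases on each side, read 5′ to 3′ along the strand on which the motif lies, with the matched letters in capitals (GRCm38.p6 coordinates).

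Asns chr6:7693215-7693242, minus strand: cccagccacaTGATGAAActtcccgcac
Trib3 chr2:152344029-152344056, plus strand: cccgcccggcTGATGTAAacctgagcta
Chac1 chr2:119351039-119351066, minus strand: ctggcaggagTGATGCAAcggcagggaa
Vldlr chr19:27216810-27216837, minus strand: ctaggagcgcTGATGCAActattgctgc
Pycr1 chr11:120643834-120643861, minus strand: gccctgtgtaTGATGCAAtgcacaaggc
Slc1a4 chr11:20332700-20332727, plus strand: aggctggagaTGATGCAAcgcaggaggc
Slc7a11 chr3:50443662-50443689, minus strand: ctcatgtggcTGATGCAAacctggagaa
Slc7a11 chr3:50443643-50443670, plus strand: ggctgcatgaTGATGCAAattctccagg

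The position marked N was C in Chac1, Vldlr, Pycr1, Slc1a4 and both matches of Slc7a11, A in Asns and T in Trib3. The whole windows of Asns, of Trib3 and of the ER chaperone gene Hspa5 are printed because these genes stand for the different outcomes in the RNA. Asns was called higher after irradiation, Trib3 lower, and Hspa5, from the ER arm, higher. Capitals mark the CARE letters in Asns (chr6:7693160-7693459, minus strand) and Trib3 (chr2:152344011-152344310, minus strand) and the ERSE letters in Hspa5 (chr2:34771840-34772139, plus strand), each written along its gene's strand.

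Asns: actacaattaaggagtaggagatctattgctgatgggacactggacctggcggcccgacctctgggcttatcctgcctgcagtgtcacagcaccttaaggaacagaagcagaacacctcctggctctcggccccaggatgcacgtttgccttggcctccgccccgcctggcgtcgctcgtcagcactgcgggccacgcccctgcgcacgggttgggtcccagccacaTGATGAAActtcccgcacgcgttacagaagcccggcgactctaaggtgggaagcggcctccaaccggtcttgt
Trib3: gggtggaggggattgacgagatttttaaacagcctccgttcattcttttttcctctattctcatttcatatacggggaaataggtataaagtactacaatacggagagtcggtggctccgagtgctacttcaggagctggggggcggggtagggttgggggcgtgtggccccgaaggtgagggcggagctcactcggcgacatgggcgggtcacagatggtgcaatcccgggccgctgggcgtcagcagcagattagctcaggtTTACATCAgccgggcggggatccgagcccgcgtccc
Hspa5: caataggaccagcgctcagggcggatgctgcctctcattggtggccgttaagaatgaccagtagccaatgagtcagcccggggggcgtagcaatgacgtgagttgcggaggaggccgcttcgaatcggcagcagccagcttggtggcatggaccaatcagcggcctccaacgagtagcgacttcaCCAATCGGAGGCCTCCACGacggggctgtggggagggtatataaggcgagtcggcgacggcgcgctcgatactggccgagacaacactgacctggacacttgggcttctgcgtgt

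**Figure D1:**
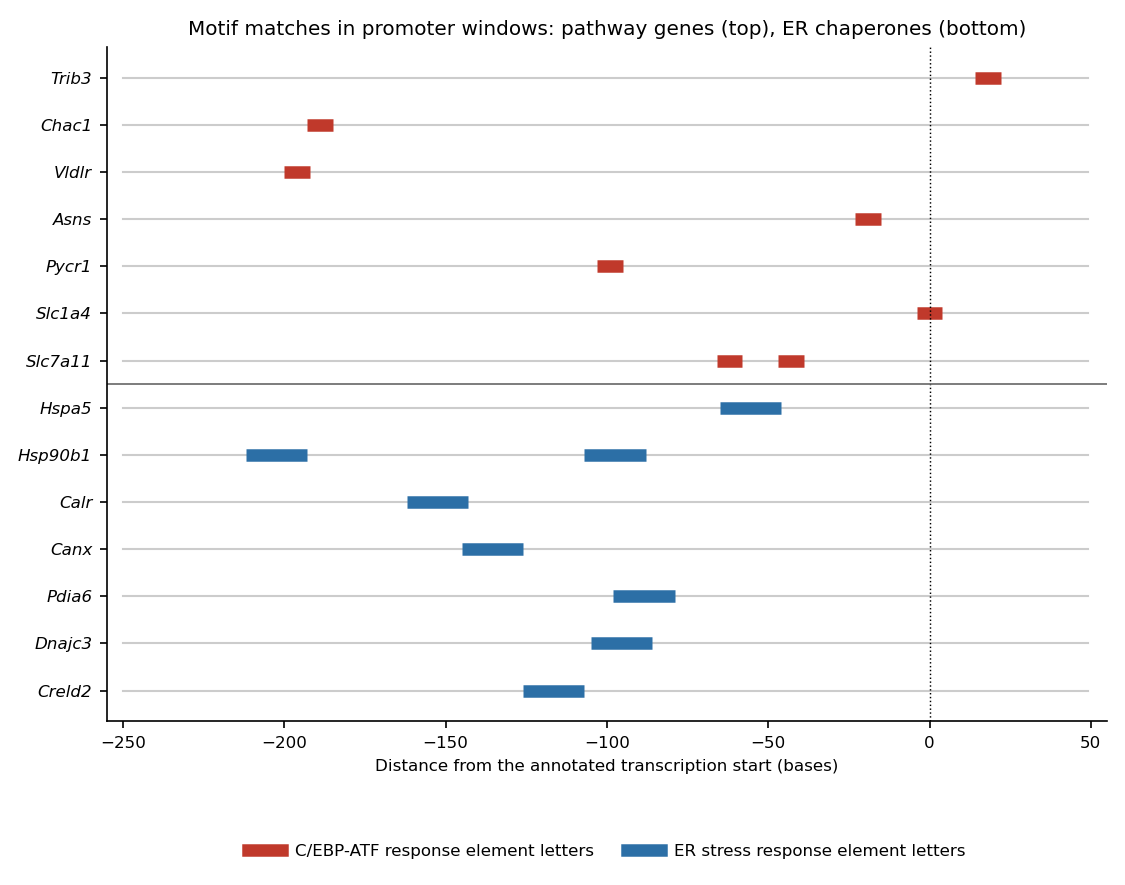
Position of each motif match in the promoter windows, as distance in bases from the annotated transcription start; grey lines are the windows, red bars CARE matches and blue bars ERSE matches, either strand. The 7 pathway genes with a match (top) carry only CARE letters and the 7 ER chaperone genes with a match (bottom) only ERSE letters.

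Expression was read as FPKM (fragments per kilobase of exon, scaled to the mapped total), so levels can be compared between genes per unit of length. Low values stepped in a way that corresponds to about 14300000 to 16300000 fragments per library, so a 1 kb transcript at 1 FPKM rests on roughly 14.3 to 16.3 fragments. The test covered the 10281 genes that reached 1 FPKM in 3 or more libraries. Of these, 2650 were called higher and 2972 lower in IR (limma on log2(FPKM + 1), Benjamini-Hochberg adjusted p under 0.05), and called genes thus made up 54.7% of those tested. Libraries of a group were very alike (Pearson correlation across genes 0.9982 to 0.9985 within groups and 0.9901 to 0.9904 between them). Nothing in the labels ties the replicates of a group to different animals, and p-values here measure only the spread between these libraries, which may be technical. RNA of the sorted markers differed between the groups: Flt3 was at 65.7 ± 1.43 FPKM in IR and 125 ± 1.58 FPKM in Ctrl HSCs (SD, n = 3 each), Ly6a, which encodes Sca-1, at 157 ± 5.17 FPKM in IR and 203 ± 5.13 FPKM in Ctrl HSCs, Cd48 at 352 ± 8.003 FPKM in IR and 400.1 ± 3.36 FPKM in Ctrl HSCs, and Slamf1, which encodes CD150, at 5.06 ± 0.443 FPKM in IR and 3.57 ± 0.409 FPKM in Ctrl HSCs (log2 fold change 0.41, or 0.23 with a pseudocount of 5), all called, while Kit was not called at 96.7 ± 1.65 FPKM in IR and 97.5 ± 1.72 FPKM in Ctrl HSCs. Against the gate, RNA of Cd48 and Flt3, whose proteins were to be absent, was abundant in both groups, and RNA of Slamf1, whose protein was required, was low. Mpo, a granulocyte and myeloid progenitor gene, was at 2665 ± 7.99 FPKM in IR and 2253 ± 9.23 FPKM in Ctrl HSCs. The cells are called HSCs below because the labels do so. Short marker lists of other blood cells differed between the groups as well. Summed over 8 genes each, lymphoid markers gave 192 to 197 FPKM in IR and 463 to 473 FPKM in Ctrl libraries, monocyte markers 674 to 690.3 FPKM in IR and 763 to 770.0 FPKM in Ctrl libraries, granulocyte markers 6066 to 6226 FPKM in IR and 5294 to 5329 FPKM in Ctrl libraries, mast cell and basophil markers 390.3 to 404 FPKM in IR and 320.0 to 328 FPKM in Ctrl libraries, megakaryocyte markers 196 to 211 FPKM in IR and 159 to 163 FPKM in Ctrl libraries and erythroid markers 98.4 to 105 FPKM in IR and 69.9 to 76.3 FPKM in Ctrl libraries. These sums are carried by their most abundant genes and do not describe every marker. In the granulocyte list 4 genes were called higher and 4 lower, the lower ones being Ngp (-1.36 on the log2 scale, or -0.83 with a pseudocount of 5), S100a9 (-1.01), Camp (-0.98, or -0.53) and S100a8 (-0.47), and the list median was -0.19. In the erythroid list 4 of 6 tested genes were called higher, while the globin genes Hbb-bs (-1.04) and Hba-a1 (-0.48) were called lower. No marker was at 0 in all 6 libraries, but Rag1, a lymphoid recombinase, was listed at 0 in all IR libraries, and the B-cell gene Ebf1 and the T-cell gene Cd3e stayed below 0.1 FPKM throughout. In such bulk samples fewer cells of a type and less RNA per cell cannot be told apart, and the part of these other cells in the results below was not tested.

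After irradiation, RNA of enzymes and transporters of the amino acid and serine arm was modestly higher. Atf4 RNA itself was not called higher. Of the 40 genes 32 passed the filter on low values, and of these 18 were called higher, 6 lower and 8 in neither direction. The background was 25.8% called higher and 28.9% called lower among all genes tested. The median log2 fold change of the 32 genes was 0.15, against -0.007 over all genes tested. The IR and Ctrl libraries did not overlap in 27 of the 32 genes, with IR on the upper side in 20 and on the lower side in 7, and 61.7% of all genes tested were without overlap. Among enzymes and transporters 16 of 20 tested genes rose and 2 fell (median log2 fold change 0.18). Among signalling genes and stress-induced effectors 2 of 12 rose and 4 fell (median 0.002), a called share near that of all genes tested. Genes at a higher level were called more often in general: of 5805 genes averaging 10 FPKM or more, 1682 were called higher and 1733 lower, and of the 21 pathway genes at that level 15 were called higher and 3 lower.

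**Figure D2:**
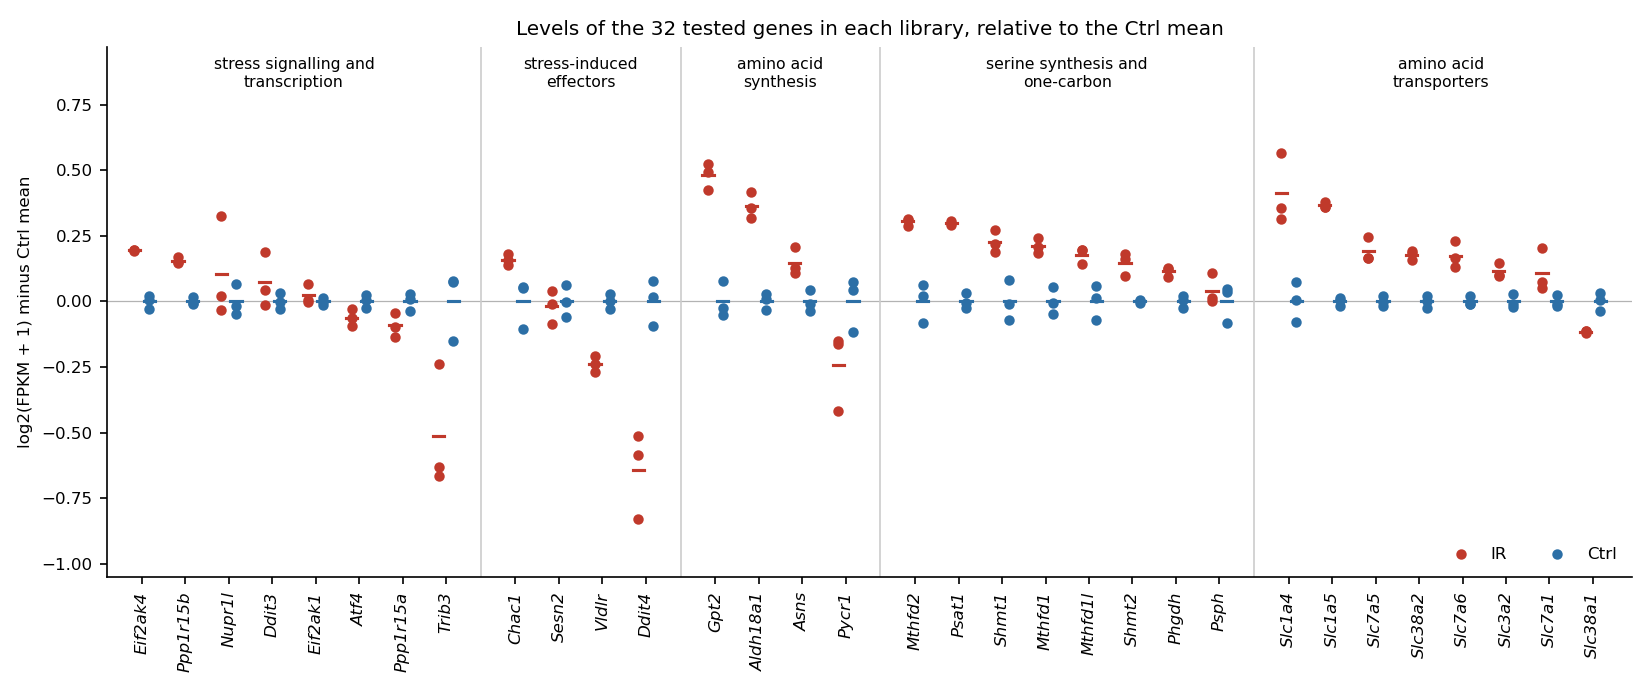
Each of the 32 tested genes in each library, as log2(FPKM + 1) minus the mean of the 3 Ctrl libraries; points are single libraries, short lines the group means, IR red on the left and Ctrl blue on the right of each gene. Enzymes and transporters lie mostly above the Ctrl line (16 of 20 called higher), while Ddit4, Trib3, Vldlr and Pycr1 lie below it.

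Stress signalling starts with the eIF2 kinases. Eif2ak4, which encodes GCN2, the kinase that senses uncharged tRNA, had 6.16, 6.16 and 6.17 FPKM in the IR libraries, against 5.29, 5.35 and 5.14 FPKM in the Ctrl libraries. It rose with a log2 fold change of 0.19 (SE 0.0454, limma adjusted p = 0.00462), or 0.12 with a pseudocount of 5, and all IR libraries lay above all Ctrl libraries. Eif2ak1, which encodes the heme-regulated kinase HRI, was not called, at 36.6 to 38.5 FPKM in IR and 36.4 to 37.0 FPKM in Ctrl libraries; its exons overlap those of Aimp2 on the other strand, and the labels do not say whether counting used strand. The phosphatase subunits that reverse eIF2 phosphorylation parted. Ppp1r15b, the constitutive subunit, had 13.3, 13.1 and 13.1 FPKM in the IR libraries, against 11.7, 11.7 and 11.9 FPKM in the Ctrl libraries, with no overlap and a log2 fold change of 0.16 (limma adjusted p = 0.00519). Ppp1r15a, the stress-induced subunit GADD34, had 32.8, 35.0 and 33.7 FPKM in the IR libraries, against 35.2, 36.3 and 36.8 FPKM in the Ctrl libraries. These groups did not overlap either, and the gene was called lower at -0.092 (limma adjusted p = 0.0441). The call was lost on leaving out IR replicate 1 (limma adjusted p = 0.144), IR replicate 3 (0.099), Ctrl replicate 2 (0.104) or Ctrl replicate 3 (0.13).

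Of the transcription factors, Atf4 was abundant in HSCs, at the 87.1 percentile of tested genes in IR and the 87.8 percentile in Ctrl libraries. It had 75.8, 77.4 and 79.2 FPKM in the IR libraries, against 79.4, 82.2 and 81.1 FPKM in the Ctrl libraries. Every IR library was below every Ctrl library, yet the difference was small and was not called (log2 fold change -0.062, SE 0.0271, limma adjusted p = 0.0771). Ddit3, which encodes the pro-apoptotic factor CHOP, was not called at 4.35, 5.15 and 4.58 FPKM in the IR libraries, against 4.29, 4.52 and 4.401 FPKM in the Ctrl libraries, and the groups overlapped. Its exons overlap those of Mars, a tRNA synthetase gene on the other strand that was at 51.5 ± 1.60 FPKM in IR and 42.7 ± 1.44 FPKM in Ctrl HSCs. The overlap is confined to the gene ends, with Ddit3 at chr10:127290774-127296288 and Mars at chr10:127296221-127311786. Nupr1l, a paralog of the stress protein gene Nupr1, was not called either at 1.41 to 2.09 FPKM in IR and 1.39 to 1.58 FPKM in Ctrl libraries, where IR replicate 3 alone stood above the Ctrl range. Atf5, a factor related to ATF4, was listed at 0.219 to 0.312 FPKM in IR and 0.117 to 0.240 FPKM in Ctrl libraries, too low for the test. Trib3, a pseudokinase that is induced by ATF4 and CHOP and restrains them, went the other way from the enzymes, with 1.95, 2.01 and 2.95 FPKM in the IR libraries, against 3.92, 3.21 and 3.92 FPKM in the Ctrl libraries. IR replicate 3 was closer to the Ctrl libraries than the other two IR libraries were, but the groups did not overlap, and the log2 fold change was -0.51 (SE 0.111, limma adjusted p = 0.003; -0.25 with a pseudocount of 5).

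Of 4 tested stress-induced effectors that act outside amino acid supply, 2 fell, none rose and 2 were not called. This called share was near that of all genes tested. Ddit4, which encodes REDD1, an inhibitor of mTORC1 signalling, had 2.56, 3.21 and 3.43 FPKM in the IR libraries, against 5.66, 4.93 and 5.39 FPKM in the Ctrl libraries. All IR libraries were below all Ctrl libraries, and Ddit4 had the most negative log2 fold change of the 32 tested genes, -0.64 (SE 0.0831, limma adjusted p = 0.000123; -0.36 with a pseudocount of 5). Vldlr, the very-low-density lipoprotein receptor and a known ATF4 target, had 20.3, 19.4 and 19.8 FPKM in the IR libraries, against 24.1, 23.1 and 23.6 FPKM in the Ctrl libraries. It too fell without overlap, by 0.24 on the log2 scale (limma adjusted p = 0.00028). Sesn2, a leucine sensor that also restrains mTORC1, was not called at 4.77 to 5.29 FPKM in IR and 4.89 to 5.39 FPKM in Ctrl libraries, with overlapping groups. Chac1, which degrades glutathione, had 1.05, 1.08 and 1.02 FPKM in the IR libraries, against 0.905, 0.901 and 0.707 FPKM in the Ctrl libraries. The IR libraries were all higher but the gene was not called (log2 fold change 0.16, limma adjusted p = 0.0799), and it passed the low-value filter through the IR libraries alone. It was called with quantile normalization (0.22, limma adjusted p = 0.0197) and without the mean-variance trend (limma adjusted p = 0.0286). Stc2, a secreted glycoprotein, was listed at 0.106 to 0.194 FPKM in IR and 0 to 0.116 FPKM in Ctrl libraries.

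All 4 tested genes of amino acid synthesis were called, 3 higher and 1 lower, where 54.7% of all genes tested were called. Asns, the asparagine synthetase and a classic ATF4 target (chr6:7675169-7693254, minus strand), had 26.0, 27.98 and 26.4 FPKM in the IR libraries, against 23.5, 24.9 and 23.9 FPKM in the Ctrl libraries. The groups did not overlap, and the rise was small, 1.11-fold in mean FPKM (log2 fold change 0.15, SE 0.0389, limma adjusted p = 0.00895). Aldh18a1, which makes the precursor of proline from glutamate, had 45.2, 46.5 and 48.6 FPKM in the IR libraries, against 35.2, 36.3 and 36.8 FPKM in the Ctrl libraries, a clear separation with a log2 fold change of 0.36 (limma adjusted p = 1.53e-05). Gpt2, the mitochondrial alanine transaminase, was low, with 2.07, 1.92 and 2.13 FPKM in the IR libraries, against 1.30, 1.14 and 1.10 FPKM in the Ctrl libraries. It rose with a log2 fold change of 0.48 (SE 0.0654, limma adjusted p = 0.000169), and all IR libraries lay above the Ctrl libraries. At this level the value depends on the pseudocount, at 0.74 with 0.1 and 0.19 with 5, and so does its rank: it was the highest of the 32 tested genes with 0.1 and 1, but not with 5, where Slc1a5 (0.34) and Aldh18a1 (0.33) were above it. Pycr1, which completes proline synthesis in mitochondria, had 4.27, 4.32 and 3.42 FPKM in the IR libraries, against 5.22, 5.08 and 4.44 FPKM in the Ctrl libraries. It was called lower (log2 fold change -0.24, limma adjusted p = 0.0271; -0.14 with a pseudocount of 5), the opposite direction to Aldh18a1 in the same pathway. Its call was lost without IR replicate 3 (-0.16, limma adjusted p = 0.0936), without Ctrl replicate 1 (limma adjusted p = 0.0925) and without Ctrl replicate 2 (limma adjusted p = 0.0828). The transsulfuration genes Cth and Cbs, which turn homocysteine into cysteine, were near the floor, Cth at 0.153 to 0.336 FPKM in IR and 0.149 to 0.305 FPKM in Ctrl libraries and Cbs at 0.0253 to 0.115 FPKM in IR and 0.0246 to 0.0757 FPKM in Ctrl libraries.

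Enzymes of serine synthesis and the folate-linked one-carbon cycle rose nearly together. Of 8 tested members 7 were called higher and none lower, with a median log2 fold change of 0.19. Called genes made up 87.5% of this list, against 54.7% of all genes tested. Phgdh, which commits a glycolytic intermediate to serine, was among the most abundant RNAs of these cells, at the 98.2 percentile of tested genes in IR and the 98.0 percentile in Ctrl HSCs. It had 385, 394 and 393 FPKM in the IR libraries, against 355, 362 and 366 FPKM in the Ctrl libraries. The groups did not overlap, but the rise was only 1.08-fold (log2 fold change 0.12, SE 0.0199, limma adjusted p = 0.000794). Psat1, the transaminase of the next step, had 95.8, 95.3 and 96.3 FPKM in the IR libraries, against 79.4, 77.2 and 76.3 FPKM in the Ctrl libraries. The groups were well apart, and the log2 fold change was 0.30 (SE 0.0250, limma adjusted p = 7.22e-06). Psph, the phosphatase that releases serine, was the member not called, with 18.7, 18.8 and 20.2 FPKM in the IR libraries, against 19.3, 17.6 and 19.1 FPKM in the Ctrl libraries, overlapping groups and a log2 fold change of 0.041. Exons of Psph overlap those of Cct6a, a more abundant chaperonin gene, on the other strand.

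Serine feeds one-carbon units into folate through hydroxymethyltransferases in the cytosol and in mitochondria, and both genes rose. The cytosolic Shmt1 had 76.6, 78.1 and 81.2 FPKM in the IR libraries, against 70.9, 63.8 and 66.6 FPKM in the Ctrl libraries, without overlap (log2 fold change 0.23, limma adjusted p = 0.000782). The mitochondrial Shmt2 had 138, 144 and 146 FPKM in the IR libraries, against 129, 128 and 129 FPKM in the Ctrl libraries, also without overlap (log2 fold change 0.15, limma adjusted p = 0.00091). Mthfd2, the mitochondrial dehydrogenase of the cycle and an ATF4 target, had 21.2, 21.6 and 21.7 FPKM in the IR libraries, against 18.0, 17.5 and 16.2 FPKM in the Ctrl libraries, and it rose by 0.31 (SE 0.0423, limma adjusted p = 0.000191). Mthfd1, the cytosolic trifunctional enzyme, had 68.4, 65.8 and 66.8 FPKM in the IR libraries, against 60.0, 55.8 and 57.4 FPKM in the Ctrl libraries (log2 fold change 0.21). Mthfd1l, which releases formate from mitochondria, had 17.4, 16.7 and 17.4 FPKM in the IR libraries, against 14.3, 15.2 and 15.7 FPKM in the Ctrl libraries (log2 fold change 0.18). In both genes the IR libraries lay above all Ctrl libraries (limma adjusted p = 0.000379 for Mthfd1 and 0.00574 for Mthfd1l). Aldh1l2, the mitochondrial formyltetrahydrofolate dehydrogenase, was listed at 0 to 0.0315 FPKM in IR and 0.0204 to 0.112 FPKM in Ctrl libraries.

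**Figure D3:**
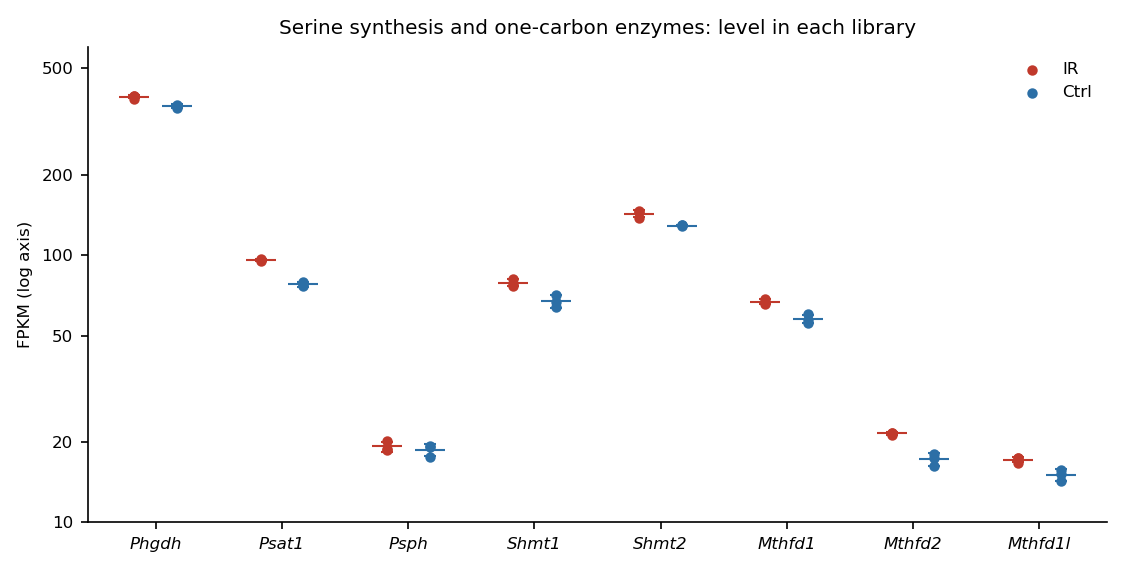
FPKM of the 8 tested serine synthesis and one-carbon enzymes in each library on a log axis, IR red on the left and Ctrl blue on the right; horizontal lines are means and error bars SD of 3 libraries. Phgdh is the most abundant at 391 FPKM in IR and 361 FPKM in Ctrl HSCs, and the groups overlap only in Psph.

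Of the amino acid transporters, 6 of 8 tested members rose and 1 fell, with a median log2 fold change of 0.18. Called genes made up 87.5% of these members, against 54.7% of all genes tested. Slc1a5, the glutamine carrier ASCT2, had 68.0, 67.1 and 67.1 FPKM in the IR libraries, against 51.4, 52.5 and 52.3 FPKM in the Ctrl libraries. Its groups were far apart for their spread, with a log2 fold change of 0.37 (SE 0.0255, limma adjusted p = 2.22e-06). Slc1a4, the related carrier ASCT1 for serine and alanine, was low and had 1.73, 1.81 and 2.25 FPKM in the IR libraries, against 1.31, 1.21 and 1.08 FPKM in the Ctrl libraries. It rose without overlap by 0.41 (SE 0.0810, limma adjusted p = 0.00173), or by 0.64 with a pseudocount of 0.1 and 0.16 with one of 5.

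Slc3a2 encodes the heavy chain 4F2hc, which carries several SLC7 light chains to the membrane, and it had 49.8, 51.4 and 49.5 FPKM in the IR libraries, against 47.3, 45.7 and 46.0 FPKM in the Ctrl libraries. The rise was slight, with a log2 fold change of 0.11 (limma adjusted p = 0.00728) and no overlap. Of the light chains among the 40 genes, Slc7a5, the leucine carrier LAT1, was at 31.3, 31.3 and 33.2 FPKM in the IR libraries, against 28.2, 27.5 and 27.8 FPKM in the Ctrl libraries. Slc7a6, an exchanger of arginine and neutral amino acids, was at 31.8, 29.6 and 30.4 FPKM in the IR libraries, against 26.8, 27.4 and 26.8 FPKM in the Ctrl libraries. Both were called higher without overlap, Slc7a5 at a log2 fold change of 0.19 (limma adjusted p = 0.00095) and Slc7a6 at 0.17 (limma adjusted p = 0.00193). Slc7a11, the cystine carrier xCT, was under the filter at 0.277 to 0.311 FPKM in IR and 0.186 to 0.268 FPKM in Ctrl libraries, and its promoter window holds 2 CARE matches. Slc7a1, the arginine and lysine carrier CAT-1, was not called at 8.68, 8.83 and 9.74 FPKM in the IR libraries, against 8.27, 8.51 and 8.23 FPKM in the Ctrl libraries, with all IR libraries higher (log2 fold change 0.11, limma adjusted p = 0.0879). With quantile normalization it was called, at 0.15 (limma adjusted p = 0.0224).

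The sodium-coupled glutamine carriers Slc38a1 and Slc38a2 lie next to each other on chromosome 15 (chr15:96571418-96642913 and chr15:96687392-96699730, GRCm38), 44478 bases apart with no protein-coding gene between them, and they went in opposite directions. Slc38a2, the SNAT2 carrier that amino acid shortage is known to induce, had 54.3, 55.7 and 55.5 FPKM in the IR libraries, against 47.8, 49.4 and 48.7 FPKM in the Ctrl libraries. It rose by 0.18 (SE 0.0274, limma adjusted p = 0.000385). Slc38a1, the SNAT1 carrier, had 22.6, 22.6 and 22.5 FPKM in the IR libraries, against 25.1, 24.6 and 23.9 FPKM in the Ctrl libraries. It was called lower, at a log2 fold change of -0.12 (SE 0.0332, limma adjusted p = 0.0136), and without Ctrl replicate 1 it was not called (-0.10, limma adjusted p = 0.0526). Neither pair of groups overlapped. The glycine carrier Slc6a9 and the arginine carrier Slc7a3 were listed under the filter, Slc6a9 at 0.293 to 0.529 FPKM in IR and 0.231 to 0.372 FPKM in Ctrl libraries and Slc7a3 at 0.0211 to 0.135 FPKM in IR and 0.0820 to 0.116 FPKM in Ctrl libraries.

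Other genes of these pathways, from lists written down with earlier results of these data known, follow in the order of their roles. Of 12 cytosolic aminoacyl-tRNA synthetases, many of them known ATF4 targets, 10 rose and none fell, with a median log2 fold change of 0.21. Called genes made up 83.3% of this list, against 54.7% of all genes tested. Wars, which charges tryptophan, was at 57.0 ± 1.37 FPKM in IR and 44.1 ± 2.11 FPKM in Ctrl HSCs, Tars at 63.5 ± 2.02 FPKM in IR and 53.2 ± 0.509 FPKM in Ctrl HSCs, Iars at 50.8 ± 0.567 FPKM in IR and 42.9 ± 1.21 FPKM in Ctrl HSCs and Gars at 97.2 ± 1.76 FPKM in IR and 85.3 ± 0.446 FPKM in Ctrl HSCs. Of 15 tested genes of one-carbon and glycine metabolism outside the 40, 6 rose, none fell and 9 were not called. The called share of this list was below that of all genes tested. The mitochondrial serine carrier Sfxn1 was at 70.5 ± 0.582 FPKM in IR and 59.7 ± 0.752 FPKM in Ctrl HSCs, the purine synthesis enzyme Gart at 98.1 ± 1.29 FPKM in IR and 80.5 ± 1.43 FPKM in Ctrl HSCs, the serine dehydratase-like gene Sdsl at 60.6 ± 3.85 FPKM in IR and 49.3 ± 0.310 FPKM in Ctrl HSCs and the methionine adenosyltransferase Mat2a at 267 ± 4.65 FPKM in IR and 242 ± 0.516 FPKM in Ctrl HSCs. Other amino acid transporters were mixed, with 4 of 12 tested genes higher, 2 lower and 6 not called. Their called share was slightly below that of all genes tested. Slc7a8 had a log2 fold change of 0.43, Slc43a1 of 0.26 and Slc6a6, the taurine carrier, of -0.22. The other that fell was Slc43a2 (-0.26, or -0.16 with a pseudocount of 5). Slc38a5 was called at 0.68 (1.14 with a pseudocount of 0.1 and 0.25 with 5) but passed the filter through the IR libraries alone, at 1.27 to 2.50 FPKM in IR and 0.631 to 0.833 FPKM in Ctrl libraries.

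Among 17 tested further genes of the integrated stress response 8 rose, 3 fell and 6 were not called (64.7% called, against 54.7% of all genes tested). Nupr1, a stress-induced chromatin protein, was at 22.4 ± 2.33 FPKM in IR and 12.5 ± 1.72 FPKM in Ctrl HSCs, Eif2s1, the eIF2 subunit that the kinases phosphorylate, at 144 ± 2.82 FPKM in IR and 123 ± 2.43 FPKM in Ctrl HSCs, Gcn1l1, which activates GCN2, at 6.96 ± 0.461 FPKM in IR and 5.52 ± 0.161 FPKM in Ctrl HSCs (log2 fold change 0.29, or 0.18 with a pseudocount of 5) and Eif2b4, a subunit of the exchange factor eIF2B, at 30.8 ± 0.536 FPKM in IR and 26.0 ± 0.134 FPKM in Ctrl HSCs. The 3 that fell were Eif2b2, another eIF2B subunit (-0.15, limma adjusted p = 0.00336), Cebpb, a C/EBP transcription factor (-0.23, limma adjusted p = 0.00847), and Eif2ak2, the eIF2 kinase PKR that senses double-stranded RNA (-0.16, or -0.088 with a pseudocount of 5, limma adjusted p = 0.04). In Cebpb the groups overlapped, at 26.8 to 31.3 FPKM in IR and 31.1 to 35.2 FPKM in Ctrl libraries. The Eif2ak2 call was lost on leaving out IR replicate 1 (limma adjusted p = 0.054), 2 (0.12) or 3 (0.0662), or Ctrl replicate 1 (0.143) or 2 (0.0656). In the amino acid sensing branch upstream of mTORC1, 4 of 19 tested genes rose, 3 fell and 12 were not called. The called share of 36.8% was below the 54.7% of all genes tested. Rraga, a Rag GTPase, was at 12.7 ± 0.706 FPKM in IR and 8.64 ± 0.219 FPKM in Ctrl HSCs, Rragc at 49.9 ± 0.640 FPKM in IR and 44.7 ± 1.14 FPKM in Ctrl HSCs and Lamtor3, a subunit of the Ragulator scaffold, at 86.1 ± 0.955 FPKM in IR and 76.3 ± 0.775 FPKM in Ctrl HSCs. Sesn1, a p53 target and relative of Sesn2, was lower at 39.0 ± 1.22 FPKM in IR and 58.3 ± 1.11 FPKM in Ctrl HSCs. The other two that fell were Nprl3, a subunit of the inhibitory GATOR1 complex (-0.17 on the log2 scale), and Lamtor5, a Ragulator subunit (-0.10).

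ER chaperones had larger log2 fold changes than most pathway genes. Of 15 tested, 14 rose, none fell and 1 (Dnajb9) was not called, so that 93.3% were called, against 54.7% of all genes tested. The median log2 fold change was 0.47, against 0.15 for the 32 tested pathway genes and 0.21 for the synthetases. Hspa5, the chaperone BiP, had 528, 519 and 525 FPKM in the IR libraries, against 319, 317 and 309.7 FPKM in the Ctrl libraries. Its log2 fold change was 0.73 (SE 0.0191), and the groups did not overlap. Whether the pathway gene Gpt2 lay below it depended on the pseudocount: Gpt2 was at 0.48 with 1 and 0.19 with 5, but at 0.74 with 0.1, where Hspa5 was at 0.73, and the ratio of mean FPKM was 1.73 in Gpt2 and 1.66 in Hspa5. Sdf2l1 was at 193 ± 2.25 FPKM in IR and 108 ± 3.10 FPKM in Ctrl HSCs, Creld2 at 115 ± 3.56 FPKM in IR and 67.3 ± 1.97 FPKM in Ctrl HSCs and Hsp90b1, the ER form of HSP90, at 265 ± 1.499 FPKM in IR and 170.4 ± 1.01 FPKM in Ctrl HSCs. Of 10 tested genes of ER-associated degradation and unfolded protein response control, 6 rose, none fell and 4 were not called (60.0% called), the median being 0.14. Derl3 was at 5.60 ± 0.489 FPKM in IR and 2.63 ± 0.274 FPKM in Ctrl HSCs (log2 fold change 0.86, or 0.47 with a pseudocount of 5), Xbp1 at 149 ± 1.91 FPKM in IR and 126 ± 3.79 FPKM in Ctrl HSCs, Derl1 at 58.0 ± 0.607 FPKM in IR and 50.6 ± 2.35 FPKM in Ctrl HSCs and Herpud1 at 90.9 ± 4.63 FPKM in IR and 82.1 ± 1.87 FPKM in Ctrl HSCs. Known ATF4 targets among the 40 genes were found on both sides, for example Asns and Mthfd2 higher, Trib3 and Vldlr lower and Chac1 not called. These examples are not all the targets among the 40 genes and do not give their balance. Over the 32 tested pathway genes, 18 were called higher and 6 lower. The difference between the lists was not tested.

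**Figure D4:**
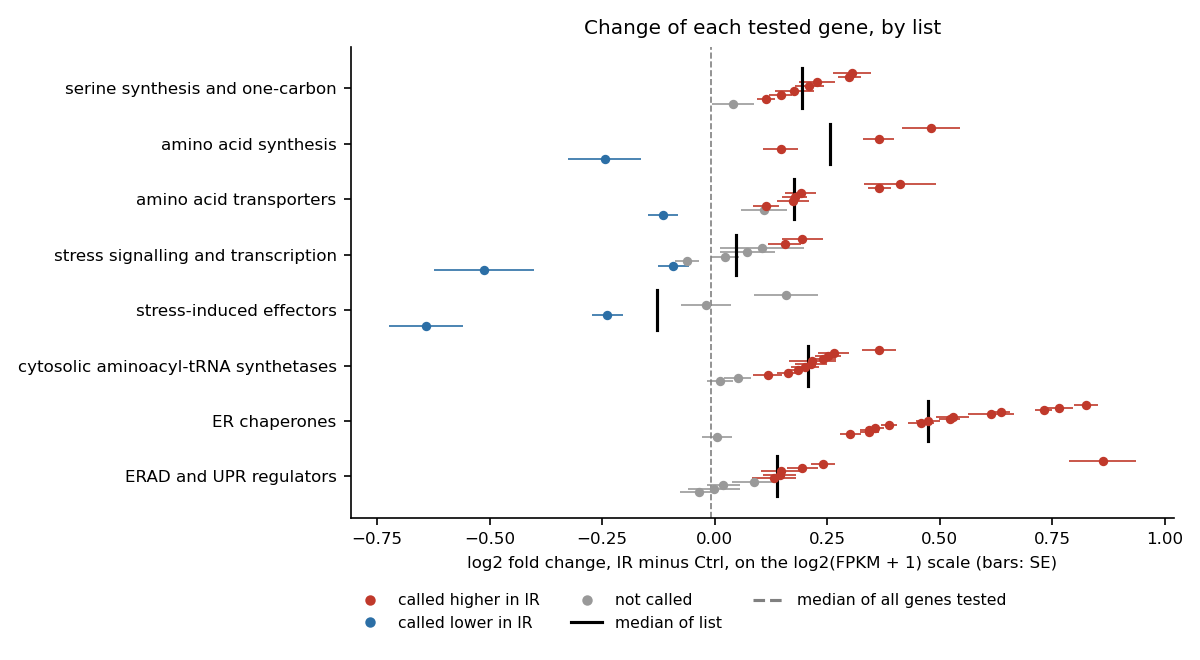
Log2 fold change, IR minus Ctrl, of each tested gene with its SE, by list; red and blue points were called higher and lower in IR, grey points were not called, black lines are list medians and the dashed line the median of all 10281 genes tested. ER chaperones reach 0.83 with a median of 0.47. Medians are 0.19 for serine and one-carbon genes, 0.26 for amino acid synthesis, 0.18 for transporters and 0.21 for synthetases. Amino acid synthesis genes and transporters, like stress signalling genes and effectors, lie on both sides of 0.

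Genes with CARE letters in the promoter window did not share a direction. Of the 7, Asns and Slc1a4 rose, Trib3, Vldlr and Pycr1 fell, Chac1 was not called and Slc7a11 was under the filter. Of the serine and one-carbon genes that rose, Phgdh, Psat1, Shmt1, Shmt2, Mthfd1, Mthfd2 and Mthfd1l, each had a window and none held these letters in it. All 7 ER chaperone genes with ERSE letters were called higher, at log2 fold changes of 0.73 in Hspa5, 0.64 in Hsp90b1, 0.39 in Calr, 0.30 in Canx, 0.34 in Pdia6, 0.53 in Dnajc3 and 0.77 in Creld2. The chaperone genes with a window but no ERSE letters were called higher too, except Dnajb9, which was not called. Sdf2l1, without these letters, had the highest log2 fold change of the list (0.83). With 14 of 15 chaperone genes called higher, the calls do not set apart those with the letters.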

How the data were processed

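RNA-seq of sorted HSCs was analysed in 6 libraries (3 IR, 3 Ctrl). Per the submitters' processing notes, fastp, HISAT2 and StringTie were used with mouse build GRCm38 (mm10); no version, order, annotation or strand setting is given in the sources used here. Values deposited by the authors, 1 per symbol and library, were treated as FPKM, inferred from StringTie and from library sums of 485166 to 489838, and were tested as deposited on a log2 scale. Of 21878 entries 27 carried a date in place of a symbol and were left out. Depth was estimated from steps in single-transcript genes; 24.8% to 28.7% of low values lay within 0.01 of a whole step, too few to recover reads. Counting error limits values near 1 FPKM.

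Genes reaching 1 FPKM in 3 or more libraries went into limma 3.58.1 on log2(FPKM + 1) (R 4.3.3; empirical Bayes with trend, 2-sided, Benjamini-Hochberg over all 10281 genes, threshold 0.05), without a replicate block. Fold changes are on that scale, which understates low genes. The script was tested on simulated data. Groups came from the titles. The genes, lists and tests were chosen with earlier results of these data known. All 40 genes are named; of every other list, up to the 4 tested members with the smallest p, all 5 sorted markers, and further genes (Mars, Cct6a, Aimp2, Dnajb9, Nprl3, Lamtor5, Eif2b2, Cebpb, Eif2ak2, Slc43a2, Mpo, the granulocyte and globin genes that fell, Rag1, Ebf1, Cd3e, the motif-bearing chaperones) for overlap, motif or as exceptions after their values were seen. Castor1 and Castor2 were matched as Gatsl3 and Gatsl2. Alternatives were pseudocount, low-value filter, scaling, variance model, replicate block and leaving out each library. Promoter windows are RefSeq's; exon overlaps are from GENCODE M21.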

Additional observations from a re-analysis of the deposited data

How the results depend on the processing

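Over 14 alternatives, 21 of the 24 calls among the 32 tested genes were kept in every alternative that tested the gene; the exceptions were Ppp1r15a, Pycr1 and Slc38a1. No called gene named here changed direction under any of them. Chac1 and Slc7a1 gained a call. Outside the 40 genes, Eif2ak2 was also not called without the filter on low values (limma adjusted p = 0.067) and with quantile normalization (0.0652). Genes called higher of the 40 stayed at 16 to 20 and genes called lower at 3 to 6; the 3 came with a filter of 5 FPKM, which left 24 of the 40 genes. The median log2 fold change was 0.12 with a pseudocount of 5 and 0.11 without a filter on low values, against 0.15, since a larger pseudocount shrinks low genes by construction and the unfiltered set adds the 8 genes near 0. Leaving out 1 library gave medians of 0.13 to 0.15. Ppp1r15a was also not called without the filter (limma adjusted p = 0.0517), with median-ratio scaling (0.0583), quantile normalization (0.108) and no trend (0.0719), nor Pycr1 without the filter (0.0676). Same-numbered libraries did not deviate together (correlations 0.0085, -0.031 and -0.049 for replicates 1 to 3). Deviations between libraries this alike are small, so this cannot show whether same-numbered libraries were prepared together. The fit with a replicate block called 2539 genes higher and 2840 lower, with 18 and 6 of the 40 genes. Depth limits the 8 genes under the filter and those near 1 FPKM.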
